A study of Drosophila melanogaster with 3 samples.

Results

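The sites described here had a called ZLD peak at cycle 13 and no midpoint of a cycle 8 or late cycle 14 peak within 150 bp of its own. The midpoints of all peak intervals in the deposited lists of the 3 stages were joined into sites wherever neighbouring midpoints lay no more than 150 bp apart. A site was kept where it lay on chromosome arm 2L, 2R, 3L or 3R and held peaks of the cycle 13 list only. The sites were thus chosen by the deposited peak calls, not by coverage computed here. This left 495 of the 13531 sites on these arms, out of 16200 sites on all sequences, and 595 sites of the same kind on all sequences. Each of the 495 sites held 1 peak, and together they made up 5.63% of the 8794 cycle 13 peaks on the arms. The called peaks of the same libraries chose the sites, so every comparison of cycle 13 with another stage given for them is a description of that choice and carries no test.

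Binding of ZLD was measured by ChIP-seq in wild-type Oregon R embryos of Drosophila melanogaster, immunoprecipitated with affinity-purified anti-ZLD antibodies. The embryos were hand sorted under a microscope into pools at mitotic cycles 8 to 9, here called cycle 8, at late cycle 13 to early cycle 14, called cycle 13, and at late cycle 14. Sorting went by morphology, so each pool mixed embryos of adjacent cycles. Chromatin of 3.7, 6.6 and 6 µg entered the 3 immunoprecipitations, and there was 1 library per stage and no replicate.

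ZLD (Zelda) is a zinc-finger protein that the mother supplies to the egg and that binds CAGGTAG and related sequences known as TAGteam elements. In the early fly embryo the nuclei divide rapidly in a shared cytoplasm with little transcription, and zygotic genes come on broadly at the maternal-to-zygotic transition, when the divisions slow. ZLD is required for the activation of many of the earliest zygotic genes, and it is known for making the DNA at its sites more accessible to other factors.

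The libraries held 13496488 mapped reads at cycle 8, 18870755 at cycle 13, then 17481411 at late cycle 14. Reads starting at a distinct combination of position and strand made up 23.4%, 50.9% and 41.0% of them, so the cycle 8 library held the most copies. Each read was extended to 150 bp, and the coverage of a site is the number of extended reads over the midpoint of its interval, scaled to 10000000 reads per library. Positions along the arms had a median coverage of 4.45, 4.24 and 4.0 at the respective stages. Exact Poisson intervals at 95% are given for single sites. They cover counting error only, since copies of a read need not be separate molecules.

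Most sites called at cycle 13 only were among the lowest peaks of the cycle 13 list. Their deposited heights, which are coverage values fitted by the authors' peak caller, centred on a median of 67.0 (quartiles 62.0 and 75.5) and ran from 17.6 to 1779. The height lay between 50 and 100 at 433 sites, at 100 or more at 36 and under 50 at 26. Of the 495 sites, 124 (25.1%) were below the 5th percentile of the cycle 13 list (62.0), 406 (82.0%) below its 25th percentile (81.8) and 483 (97.6%) below its median (130.7). The interval had the shortest length of 280 bp at 477 sites (96.4%), against 72.8% of all cycle 13 peaks on the arms.

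**Figure D1:**
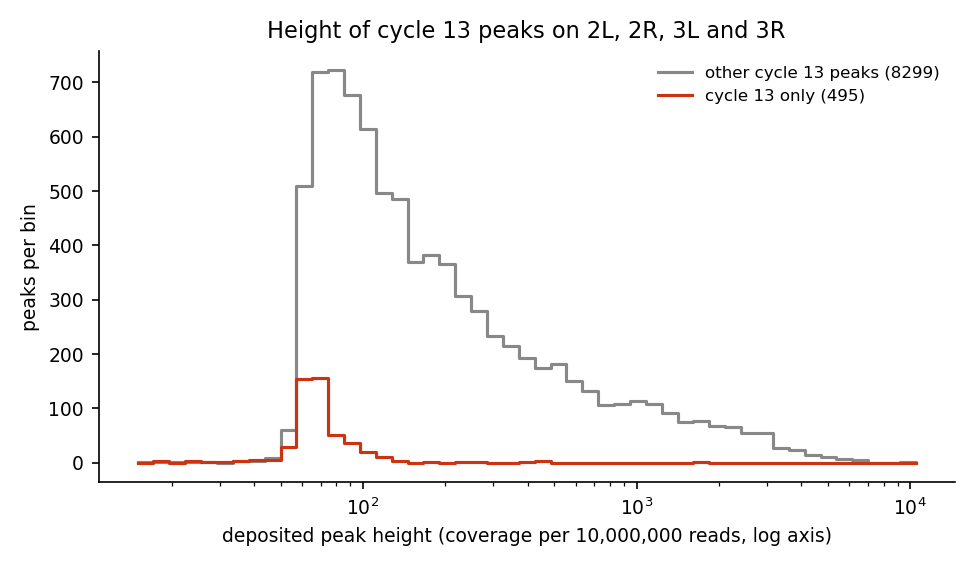
Number of cycle 13 peaks per bin of deposited peak height (log axis) on 2L, 2R, 3L and 3R, for the 495 sites called at cycle 13 only (red) and the 8299 other cycle 13 peaks (grey). The sites called at cycle 13 only pile up at the low end, around their median of 67.0, while the other peaks reach far higher, and a single red site lies at 1779.

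The sites were spread over the 4 arms in similar shares. There were 103 on 2L, 112 on 2R, 126 on 3L and 154 on 3R, which was 3.38%, 3.49%, 3.89% and 3.82% of the sites on each arm. Their median cycle 13 coverage ranged over the arms only from 68.4 on 2L to 70.5 on 3L.

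On the median these sites were enriched at all 3 stages, and coverage was highest at cycle 13 at most of them. The median coverage of the 495 sites was 39.3 at cycle 8 (quartiles 25.9 and 50.4), 68.9 at cycle 13 (62.0 and 80.5), then 44.6 at late cycle 14 (33.8 and 52.6). Over single sites it ran from 0 to 2916 at cycle 8, from 19.1 to 519 at cycle 13 and from 2.86 to 1000.5 at late cycle 14, so the stages overlapped widely. Only 1 site had no read over its midpoint at cycle 8, and none had that at late cycle 14.

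The coverage at the uncalled stages stood above the surroundings of the sites. Coverage was at least 5 times the arm median at 404 sites at cycle 8 (81.6%) and at 466 at late cycle 14 (94.1%). It was so at both of these stages at 379 sites (76.6%). No share over other sites stands beside these counts, so nothing is read from their size. Relative to the mean of the flanks 500 to 1000 bp away, the median enrichment at the midpoint was 4.01-fold at cycle 8, 8.08-fold at cycle 13, then 4.86-fold at late cycle 14. The coverage exceeded its flanks at least 2-fold at 353 sites at cycle 8 (71.3%) and at 383 sites at late cycle 14 (77.4%). At cycle 13 it did so at 411 sites (83.0%). Other sets also passed this ratio at uncalled stages. For sites called at cycle 8 only, 78.7% did so at cycle 13 and 60.6% at late cycle 14. For those called at late cycle 14 only, 43.6% did so at cycle 8 and 74.7% at cycle 13. The share was 83.5% at late cycle 14 for sites in the cycle 8 and 13 lists. It was 63.6% at cycle 8 for those called at cycle 13 and late cycle 14. The differences between sets were not tested. At cycle 8 and late cycle 14 the coverage of the sites called at cycle 13 only was lower than at most called sites of those stages. It fell below the 5th percentile of the coverage at called sites (58.5 at cycle 8 and 61.8 at late cycle 14) at both stages in 409 sites (82.6%), and 14 sites reached these percentiles at both.

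**Figure D2:**
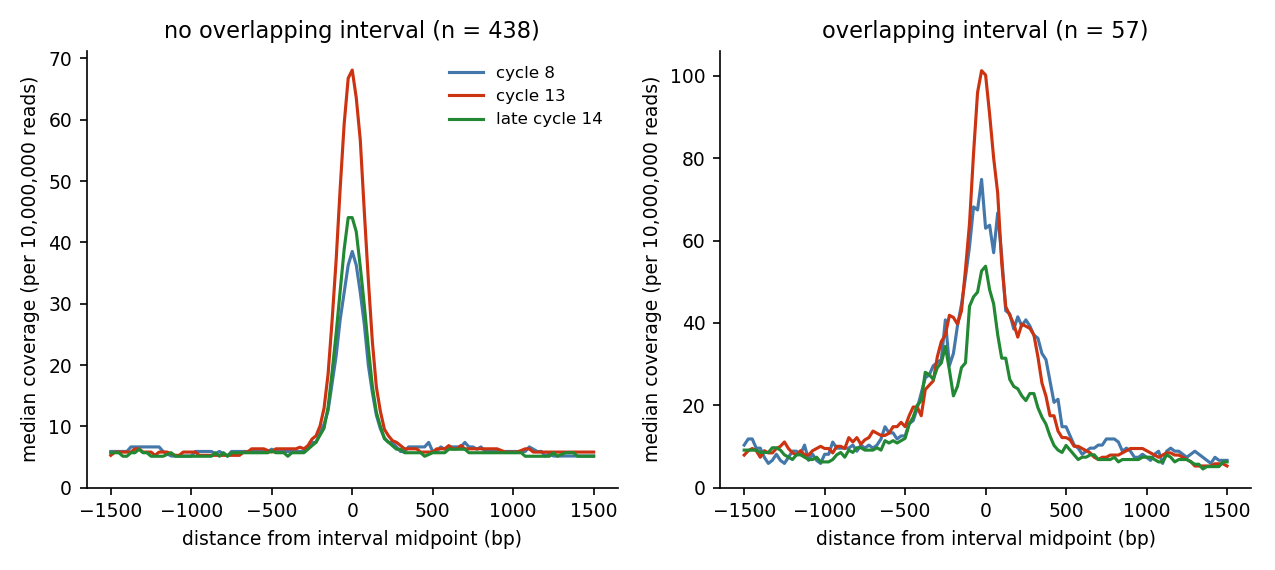
Median coverage (per 10000000 reads) at each stage against the distance from the interval midpoint, for the 438 sites called at cycle 13 only whose interval overlapped no peak interval of another list (left) and the 57 whose interval overlapped one (right). On the left all 3 stages peak at the midpoint, with medians of 38.5 at cycle 8, 68.1 at cycle 13, then 44.0 at late cycle 14. On the right the curves have broad shoulders and the medians at the midpoint are 63.0, 100.2 and 53.8.

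Forward-strand reads lay upstream of reverse-strand reads at every stage, the arrangement that fragments around a bound position give. Within 300 bp of the midpoints, the median start of the reverse-strand reads lay 74 bp downstream of that of the forward-strand reads at cycle 8, 89 bp at cycle 13 and 67 bp at late cycle 14. Reads were pooled over all 495 sites, among them 57 whose interval overlapped a peak interval of another list. The offsets at cycle 8 and late cycle 14 thus include reads of peaks called at those stages. For comparison at uncalled stages, the offset at the sites called at cycle 8 only was 82 bp at cycle 13 and 61 bp at late cycle 14. At the sites called at late cycle 14 only it was 48 bp at cycle 8 and 75 bp at cycle 13. It was 92 bp at late cycle 14 for the sites in the cycle 8 and 13 lists. For the sites called at cycle 13 and late cycle 14 it was 83 bp at cycle 8. At called stages, it was 117 bp at cycle 8 for the sites called at cycle 8 only. It was 92 bp at late cycle 14 for those called at late cycle 14 only, and 111 bp at cycle 13 for those called at cycle 13 and late cycle 14. Offsets at called and uncalled stages thus met at 92 bp. The number of distinct starts behind the values differed between stages. Within 150 bp of a midpoint there was a median of 21 distinct combinations of position and strand per site at cycle 8, 117 at cycle 13, then 62 at late cycle 14, so the cycle 8 values rested on the fewest starts.

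The excess at cycle 13 over the neighbouring stages was moderate at the majority of sites. Coverage was at least 2-fold higher at cycle 13 than at cycle 8 at 223 sites (45.1%), where 33.0% of all 13531 sites passed the same ratio. It was at least 2-fold higher than at late cycle 14 at 155 sites (31.3%), where 26.1% of all sites did so. Both ratios were passed by 56 sites (11.3%), against 0.540% of all sites. Coverage was highest at cycle 13 at 432 sites (87.3%), against 19.1% of all sites, it fell from stage to stage at 34, rose from stage to stage at 29, and was lowest at cycle 13 at none. These shares follow from the choice of sites, and nothing is read from their distance to the background.

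The median log2 ratio was 0.89 to cycle 8 (quartiles 0.51 and 1.51) and 0.71 to late cycle 14 (0.39 and 1.15). Over all sites on the arms the medians were 0.21 and 0.30. The counting interval at cycle 13 lay wholly above that at cycle 8 at 335 sites, above that at late cycle 14 at 300 sites and above both at 192 (38.8%). At the remaining sites the interval at cycle 13 overlapped or lay below that of at least 1 other stage, which does not by itself show that the values did not differ. No share over all sites on the arms stands beside these interval counts, so nothing is read from them. The ratio to cycle 8 depended on the scaling, and with factors set by the median of ratios over the sites in all 3 lists, 123 in place of 223 sites passed the 2-fold ratio, while scaling by the reads outside all sites gave 296. The number of sites with their highest coverage at cycle 13 depended on the scaling too. The median-of-ratios factors lowered it from 432 to 326, and scaling by the reads outside all sites gave 442. With 1 read per position and strand, 103 in place of 155 sites passed the 2-fold ratio against late cycle 14. These recomputed counts have no share over all sites beside them either.

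**Figure D3:**
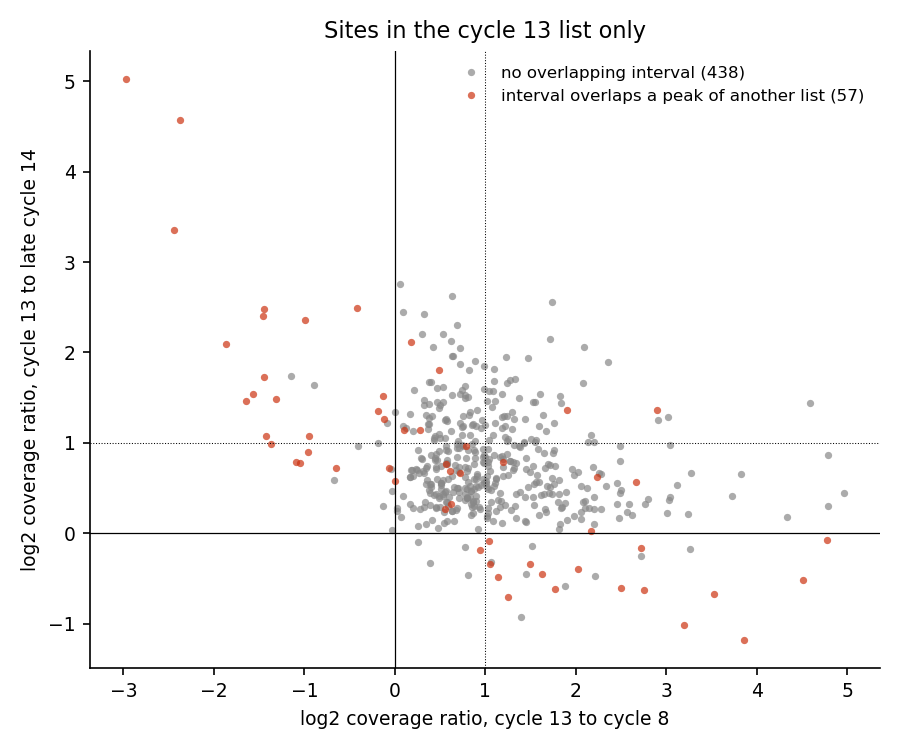
Log2 ratio of coverage at cycle 13 to late cycle 14 against that of cycle 13 to cycle 8, 1 point per site called at cycle 13 only, in grey where no peak interval of another list overlapped (438) and in red where one did (57). Solid lines mark equal coverage and dotted lines the 2-fold ratio. Most grey points lie in the upper right, where 416 of the 438 had their highest coverage at cycle 13, as 19.1% of all sites on the arms did. The red points reach far into the upper left and lower right.

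A peak of another list lay close to part of the sites, with its midpoint beyond the joining distance of 150 bp. The interval of 57 sites (11.5%, exact Clopper-Pearson interval 8.84% to 14.7%) overlapped a peak interval of another list. The Clopper-Pearson interval treats the sites as independent and covers neither the spread between libraries nor the choice of joining distance. At 33 of the 57 sites the overlap was with a cycle 8 peak, at 20 with a late cycle 14 peak and at 4 with both. Overlap was concentrated among the high peaks, with 22 of the 36 sites of height 100 or more (61.1%) and 35 of the 459 lower sites (7.63%), and all of the 12 highest sites overlapped such an interval.

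Sites with and without an overlapping interval had different stage patterns. Of the 438 without overlap, 416 (95.0%) had their highest coverage at cycle 13, 10 fell from stage to stage and 12 rose. Of the 57 with overlap, 16 (28.1%) had their highest coverage at cycle 13, 24 (42.1%) fell and 17 (29.8%) rose. Over all sites on the arms, 19.1% were highest at cycle 13, 41.8% fell and 35.3% rose. The sites with overlap lay nearer to these shares than those without. The cycle 13 coverage of the 57 sites was also higher, with a median of 100.2 against 68.1. The 26 sites with a height under 50 formed a further group, with a median cycle 13 coverage of 41.9. Coverage was highest at cycle 13 in 8 of them, and none was 2-fold above both other stages, as 0.540% of all sites were.

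The distance from a site to the nearest peak midpoint of another list had a median of 1290 bp and ran from 155 bp to 42290 bp. It was no more than 200 bp at 33 sites, between 200 and 500 bp at 81, and over 5000 bp at 82. At the 381 sites more than 500 bp away, coverage was highest at cycle 13 in 96.9%, and 12.3% were 2-fold above both other stages. Of all sites on the arms, 19.1% and 0.540% were so. The shares follow from the choice of sites, and nothing is read from them.

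Many of the sites had another ZLD site close by. The nearest other site, of any list, was a median of 1172 bp away, compared with 1191 bp for the sites called at late cycle 14 only, 1153 bp for those in all 3 lists and 2113 bp for those called at cycle 8 only. A neighbour within 500 bp was present at 113 sites (22.8%), against 12.3% to 18.8% of the sites called at other combinations of stages. The joining distance bears on such neighbours, and the difference was not tested. The nearest site was in all 3 lists at 186 of the 495 (37.6%, where 32.5% of all sites were of that kind), called at cycle 8 only at 110 (22.2%, against 26.1%), and another site called at cycle 13 only at 17 (3.43%, against 3.66%).

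The highest peak of the set was within 5000 bp of hunchback (hb), a gap gene that sets up the head and thorax of the embryo. Its nearest positioned gene was CG8112, at most 83 bp away. Its interval on 3R, from 4526081 to 4527160 on dm3, was the longest at 1080 bp, and its deposited height was 1779. At the midpoint, 4526621, coverage was 191 at cycle 8, 421 at cycle 13, then 589 at late cycle 14, so it rose from stage to stage. The position of highest pooled coverage in the interval lay 356 bp away at 4526977, and there the values were 1510.0, 1762 and 2031. The late cycle 14 list held a peak of height 2047 with its midpoint 185 bp away and an interval from 4526461 to 4527150. Coverage at the position of highest pooled coverage was thus high at all 3 stages, and the late cycle 14 midpoint lay beyond the joining distance of 150 bp. Whether that position and the midpoint reflect the same binding was not tested.

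The other 7 of the 8 highest sites also had a peak of another list within 300 bp. Next in height, at 479, was a site on 2R at 18144156 inside defective proventriculus (dve), which encodes a homeodomain transcription factor. It had a coverage of 134 at cycle 8, 129 at cycle 13, then 77.8 at late cycle 14, and a cycle 8 peak lay 155 bp away. Its ratio of cycle 13 to cycle 8 changed sign with the position taken, from a log2 value of -0.06 at the midpoint to 0.50 at the position of highest coverage. A site on 2R at 8846421, labelled intergenic in the study's peak annotation, had the steepest rise of this group, from 30.4 at cycle 8 to 443 at cycle 13, then 1000.5 at late cycle 14. The late cycle 14 list held a peak of height 1064 at a distance of 175 bp from it.

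Of the others, a single site had its highest coverage at cycle 13, and those near Sr-CII and CG7465 fell from cycle 8. A site on 3R at 2683576, at most 6470 bp from the pair-rule gene fushi tarazu (ftz), had 42.2 at cycle 8, 268 at cycle 13, then 180.2 at late cycle 14, which was 6.35-fold and 1.49-fold higher at cycle 13 (log2 ratios 2.67 and 0.57). At the position of highest coverage in its interval the log2 ratios were 1.77 and 0.09. A site on 2R at 8096241, at most 118 bp from the scavenger receptor gene Sr-CII, had 333, 291 and 114, and a cycle 8 peak of height 1414 lay 275 bp away. A site on 3L at 4480506, labelled as coding sequence in the study's annotation and at most 5 bp from CG7465, had the largest fall from cycle 8 to late cycle 14 among the 495 sites. Its coverage was 2916 at cycle 8 (interval 2825 to 3008), 373 at cycle 13 (345.5 to 401.1), then 11.4 at late cycle 14 (6.99 to 17.7). A cycle 8 peak of height 2977 had its midpoint 285 bp away, with an interval from 4480331 to 4481250 that covered the whole cycle 13 interval.

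The remaining 2 of the highest sites rose from cycle 8. A site on 2L at 16486031, at most 46 bp from dachshund (dac), which encodes a nuclear factor of eye and leg development, had 27.4 at cycle 8, 155 at cycle 13, then 235 at late cycle 14. A site on 3L at 22260346, at most 15 bp from Csp, which encodes the cysteine string protein of synaptic vesicles, had 133, 273 and 291, and its intervals at cycle 13 and late cycle 14 overlapped.

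The sites with the largest excess at cycle 13 over both other stages were a different group, with heights from 67.2 to 126.8 and no overlapping interval of another list. The site with the largest excess was on 2L at 19700171, inside screw (scw), which encodes a BMP-type ligand that patterns the dorsal side of the blastoderm embryo. It had 20.01 at cycle 8 (interval 13.2 to 29.1), 102 at cycle 13 (88.4 to 118), then 27.5 at late cycle 14 (20.2 to 36.4), a ratio of 5.11 to cycle 8 and 3.72 to late cycle 14. Coverage at the flanks of this site was 321, 298 and 229.8, above the site at every stage, and a cycle 8 peak lay 320 bp away. A site on 3L at 4635341, at most 551 bp from CG13716, had 69.6, 228 and 51.5, and the interval at cycle 13 lay above both others. The coverage of its flanks was 125, 109 and 65.8, higher than at the site itself at cycle 8 and late cycle 14.

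The other 4 sites of this group had between 68.9 and 88.0 at cycle 13 and no more than 30.3 at either other stage. A site on 2R at 11791981, at most 3610 bp from slit (sli), which encodes the secreted repellent of midline axon guidance, had 20.7 at cycle 8, 73.7 at cycle 13, then 25.7 at late cycle 14. A site on 3R at 914921, at most 2512 bp from corto, whose product interacts with Polycomb and trithorax group proteins, had 27.4, 80.0 and 29.2. The coverage of its flanks was 30.1, 80.0 and 52.4, so the site was level with them at cycle 13 and below them at the other stages. A site on 3R at 7942051, at most 4906 bp from dpr17, a member of an immunoglobulin-domain family, had 28.9, 88.0 and 30.3. A site on 3R at 23032941 had no positioned gene within 5000 bp and had 16.3, 68.9 and 21.7. Flank coverage was at most 12.55 at any stage for this site and those near sli and dpr17. At each of the 6 sites the counting interval at cycle 13 lay above those of both other stages. At the site near sli the cycle 8 value rested on 14 distinct read starts, against 141 at cycle 13, then 54 at late cycle 14. At the site on 3R at 23032941 it rested on 8, against 117 at cycle 13, then 34 at late cycle 14.

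**Figure D4:**
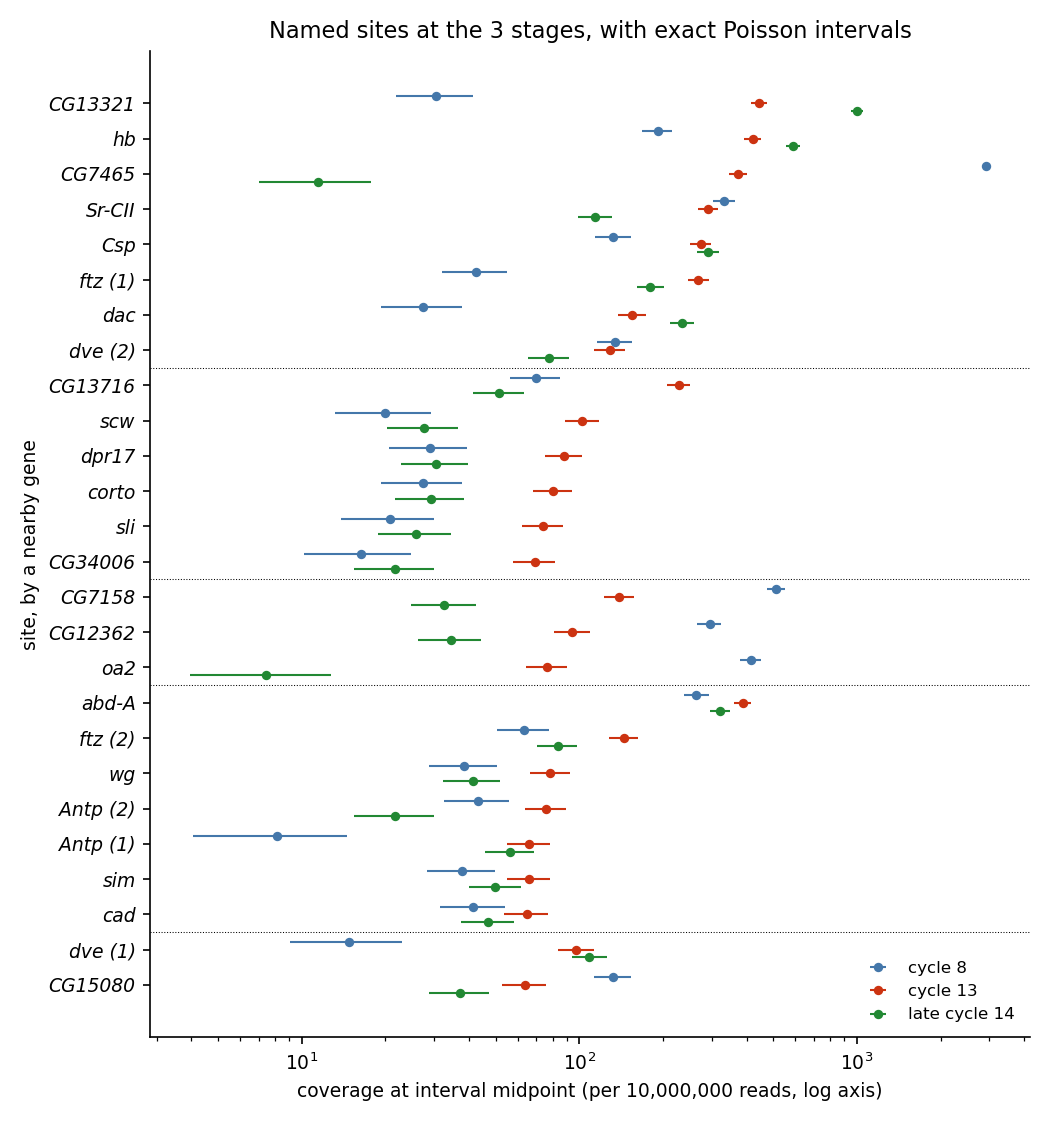
Coverage at the interval midpoint (per 10000000 reads, log axis) at the 3 stages for the named sites, with exact Poisson 95% intervals, each row labelled with a gene inside or near which the site lay. Dotted lines part the 8 highest peaks, the 6 with the largest excess at cycle 13, sites with the smallest, the sites at key developmental genes, and sites whose nearest peak of another list lay just beyond the joining distance. The scw site reads 20.01, 102 and 27.5, and the CG7465 site falls from 2916 through 373 to 11.4.

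At the opposite end, among the sites at or above the median cycle 13 coverage, the 4 with the smallest ratio to the stronger of the other stages all fell steadily from cycle 8. They were the site at CG7465 and 3 lower peaks. A site on 3R at 18336721, labelled intronic and at most 10 bp from oa2, had 413 at cycle 8, 76.3 at cycle 13, then 7.44 at late cycle 14 (interval 3.96 to 12.7). A neighbouring site on 3R at 18337201, below that median and picked out after its values were seen, had 353, 67.8 and 2.86. A site on 3L at 21670311, at most 310 bp from CG7158, had 510, 139 and 32.6. A site on 3L at 10395601 had 294, 94.3 and 34.3. Each of the 4 overlapped a cycle 8 peak interval whose midpoint lay between 175 and 285 bp away.

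Sites called at cycle 13 only lay inside or within 5000 bp of 7 of the 50 genes on these arms from a list of 59 early patterning and control genes. There were 8 such sites, at hb, wg, cad, ftz, sim and abd-A and, with 2 sites, at Antp. At 7 of the 8 sites coverage was highest at cycle 13, hb being the exception, and 3 of the 8 had an overlapping interval of another list. Coverage was highest at cycle 13 at 87.3% of the 495 sites and 19.1% of all sites on the arms, and 11.5% of the 495 had such an overlap. Nothing is read from the counts at these genes.

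The site at wingless (wg), which encodes the Wnt ligand of segment polarity, lay on 2L at 7303311, within 3850 bp of the gene. It had 38.5 at cycle 8, 78.4 at cycle 13, then 41.2 at late cycle 14, and its intervals at the other stages lay below that at cycle 13. The site inside caudal (cad), which encodes a homeodomain protein of the posterior embryo, lay on 2L at 20776031 and had 41.5, 64.7 and 46.9. The site inside single-minded (sim), the regulator of midline cell fate, lay on 3R at 8894941 and had 37.8, 65.7 and 49.8. The coverage of the flanks was 46.5, 110 and 109 for sim, above the site at every stage. For cad it was 30.7, 71.4 and 63.9, above the site at cycle 13 and late cycle 14. For wg it was 5.66, 19.1 and 18.6, below the site at every stage. For sim the interval at cycle 13 overlapped that at late cycle 14, and for cad it overlapped those of both other stages.

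The Hox gene Antennapedia (Antp) held sites with different patterns. The one on 3R at 2756401 had 8.15 at cycle 8 (interval 4.07 to 14.6), 65.7 at cycle 13, then 56.1 at late cycle 14, which was 8.06-fold higher than at cycle 8 (log2 ratio 3.01) and 1.17-fold higher than at late cycle 14 (0.23). Over a 300 bp window its log2 ratios were 1.84 and 0.0012, and with the arm median subtracted that to cycle 8 was 4.05. At the position of highest coverage in its interval they were 2.38 and 0.19. Its cycle 8 value was 11 reads, with 7 distinct read starts within 150 bp of the midpoint, against 119 at cycle 13. The one at 2770971 had 43.0, 75.8 and 21.7, which was 1.76-fold and 3.49-fold higher at cycle 13. The nearer stage was thus late cycle 14 for one site and cycle 8 for the other. Neither had an overlapping interval of another list.

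The sites at ftz and at the Hox gene abdominal-A (abd-A) lay beside stronger neighbours. The site inside ftz, on 3R at 2691701, had 63.0 at cycle 8, 144 at cycle 13, then 83.5 at late cycle 14, with a late cycle 14 peak of height 286 at 260 bp. At the position of highest coverage within its interval the log2 ratio to late cycle 14 changed sign, from 0.79 to -0.08. The site inside abd-A, on 3R at 12652411, had 264, 387 and 320.3, although its deposited height was only 46.5, and the coverage of its flanks was 292, 266 and 214. Counting 1 read per position and strand changed the sign of both of its log2 ratios, to -0.10 and -0.20.

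Positions on dm3 were at hand for 4765 genes, 1459 of them with a full span. The other positions came from the distances to genes that the study's peak annotation gives for ZLD peaks. Of the 495 sites, 128 lay inside one of the 4765 genes, and 287 (58.0%) inside or within 5000 bp. The gene set thus rests partly on genes assigned to ZLD peaks. No share over all sites stands beside these counts, so nothing is read from them. Distances to a gene are upper limits, since only part of its extent was known for many genes. Of the 117 genes with a site inside, 11 had more than 1, and these genes were picked out after the counts were seen. CG31523 and the cell adhesion gene Neurotactin (Nrt) held 3 sites each, and Alh, Antp, Eip75B, H15, Ten-m, TyrR, fz2, neur and nub held 2 each. Of the 24 sites in these genes, 22 had their highest coverage at cycle 13, 2 were 2-fold above both other stages and 23 had no overlapping interval of another list. The respective shares of the 495 sites were 87.3%, 11.3% and 88.5%. Of all sites on the arms, 19.1% were highest at cycle 13 and 0.540% were 2-fold above both other stages. Nothing is read from the counts in these genes.

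In fz2 and Nrt a site rose from stage to stage. In the other genes with more than 1 site, all sites had their highest coverage at cycle 13. In frizzled 2 (fz2), which encodes a receptor for Wingless, the site on 3L at 19172021 had 11.1 at cycle 8, 29.1 at cycle 13, then 55.5 at late cycle 14, and the one at 19183851 had 47.4, 68.4 and 14.9. The site at 19172021 had a deposited height of only 26.1. In H15, which encodes a T-box factor, the site on 2L at 5413831 had 20.7, 77.9 and 30.3, and its neighbour at 5413181 had 53.3, 75.8 and 51.5. The interval of the site at 5413831 overlapped a peak interval of another list, and the nearest midpoint of such a list lay 180 bp away. In nubbin (nub), which encodes a POU-domain factor, the sites were alike, with 45.9, 69.4 and 52.6 on 2L at 12622141 and 37.0, 68.9 and 48.1 at 12623281. In neuralized (neur), the ubiquitin ligase that acts on Notch ligands, the site on 3R at 4859051 had 17.0, 61.5 and 50.3 and the one at 4862881 had 38.5, 57.2 and 41.2.

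The rule set the joining distance at 150 bp, and the sites nearest to it on either side were as follows. Of the sites kept, those nearest to the limit had a peak of another list just beyond it. Such a peak lay 155 bp from the site in dve and from a site on 2R at 14675041, which had 132 at cycle 8, 63.6 at cycle 13, then 37.2 at late cycle 14. It lay 160 bp from a site on 2R at 18130471, at most 997 bp from dve, which had 14.8, 97.5 and 109. On the other side of the limit, 3 cycle 13 peaks lay exactly 150 bp from a midpoint of another list, were joined to it and so belonged to other sets. They had heights of 571 on 2L at 3611871, 545 on 2R at 19460871 and 206 on 3R at 17325251, with cycle 13 coverage of 185, 228 and 110.2.

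Against the other sets of sites on the arms, those called at cycle 13 only had the lowest median coverage at cycle 13 of any set called at that stage. It was 68.9, compared with 84.8 at the 1626 sites shared with cycle 8, 97.5 at the 2278 sites shared with late cycle 14, and 291 at the 4393 sites in all 3 lists. At cycle 8 their median of 39.3 lay above the 25.9 of the sites shared with late cycle 14 and below the 81.5 of the sites called at cycle 8 only. At late cycle 14 their median of 44.6 lay above the 36.6 of the sites in the cycle 8 and 13 lists and below the 73.2 of the sites called at late cycle 14 only. The lists define these sets, so the order of the medians is a description.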

How the data were processed

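ChIP-seq for ZLD was carried out on 3 samples, 1 per stage. Per the labels and methods, the authors mapped reads to dm3 with Bowtie 0.12.5, kept tags with a unique place, extended them to 150 bp, scaled each library to 10000000 reads and called peaks per library with Grizzly Peak. The deposited peak lists give intervals and heights as a coverage signal, while the mapped reads, 25 bp long, were deposited with their position and strand.

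Coverage was recomputed from the reads with numpy 2.4.6, scipy 1.17.1 and pandas 2.3.3 under Python 3.11.15, copies included. Read numbers under 3 were set to 3 in log2 ratios. Positions are counted from 1. With 1 library per stage no test was made. The functions were tested on simulated data.

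The sites and lists were chosen with earlier results of these data known. The sites named were the 8 highest peaks, the 6 with the largest and the 4 with the smallest log2 ratio to the stronger of the other stages among those at or above the median cycle 13 coverage, those inside or within 5000 bp of the listed genes, and 3 on each side of the joining distance. Genes with several sites were named after their counts were seen.

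Gene positions and peak labels came from the parts of the study's supplementary tables that were used. The dm3 sequence was not used, so the share of sites with a CAGGTAG motif, its motif variants and sequences are not analysed here. Alternatives covered the joining of peaks, the position and width read, scaling, copies, background, the floor and the fold threshold.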

Additional observations from a re-analysis of the deposited data

How the results depend on the processing

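Of the counts and medians recomputed under an alternative, 53 of 88 stayed within the limits set for them (1.5 times for counts, an exact binomial interval over the sites for medians) and 35 moved, and of the log2 ratios of named sites 284 of 364 stayed and 80 moved, none of those past 2-fold changing sign. Joining midpoints within 50 bp gave 776 sites, which held all 495, with median coverage of 41.5 at cycle 8, 74.2 at cycle 13, then 48.6 at late cycle 14, 352 sites 2-fold above cycle 8, 238 above late cycle 14 and 338 with an overlapping interval. Joining within 300 bp left 435 sites, 1 of them overlapping, and joining by interval overlap left 438, with 0 overlapping by construction. Reads over 300 bp gave medians of 68.2, 108 and 73.2, and the position of highest coverage gave 43.7 at cycle 8 and 46.9 at late cycle 14. With 1 read per position and strand the medians were 47.5, 90.6 and 64.2, 103 sites were 2-fold above late cycle 14, and the cycle 13 enrichment over the flanks was 6.62. Scaling by reads outside sites gave medians of 34.9, 72.1 and 48.0. Median-of-ratios scaling gave 48.2 at cycle 8 and 58.7 at cycle 13, with 123 sites 2-fold above cycle 8. Under it 326 sites had their highest coverage at cycle 13, in place of 432. Subtracting the arm median gave 34.8, 64.7 and 40.6. Among the 248 sites at or above the median height, 120 and 100 passed the 2-fold ratios and 217 were highest at cycle 13, which are fewer by construction. By construction too, 342 and 290 sites passed a 1.5-fold and 112 and 49 a 3-fold threshold. No share over all sites stands beside the counts under an alternative, so nothing is read from their size. The restriction to sites over 500 bp from other peaks was added after the data had been seen. No paired analysis was possible because each stage had 1 library, and no library could be left out. The motif share was not run. The cause of the other shifts was not tested.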
